A study of Mus musculus with 10 samples.

Results

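The genes described here are 10 secreted signals of the lung, the chemokines Cxcl1, Cxcl2, Cxcl5, Cxcl10, Cxcl15, Cxcl16, Ccl2 and Ccl20 and the colony-stimulating factors Csf1 and Csf2. They were taken by gene symbol from the 31053 genes of the deposited count tables, and each symbol matched a gene of its own. The rule used symbols alone, and the genes were chosen with earlier results of these data known. They were followed through 10 single-cell libraries in 6 groups, in epithelial cells with no Ptprc molecule and in immune cells positive for Ptprc, which encodes the pan-leukocyte surface protein CD45.

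The libraries came from adult mice of 8 weeks given 3 oral doses of 0.2 mg tamoxifen per g body weight. In these mice Sftpc-CreERT2 drives recombination in alveolar type 2 (AT2) cells, the surfactant-making progenitors of the alveolus, so that label and mutation begin in that lineage. In Sftpc-CreERT2; R26R-Confetti lungs both colours are wildtype, and 1 RFP and 1 YFP library were made. In lungs of a second line with the same Sftpc-CreERT2 driver, called mosaic here, RFP+ cells carry an oncogenic mutation and YFP+ cells are their wildtype neighbours, with 2 libraries of each colour at 4 days and 2 of each at 2 weeks after induction. The labels give no time for Confetti, which the study's methods place at 2 weeks, and by those methods the 4-day lungs were taken before tamoxifen had washed out. Cells were sorted for EpCAM and for RFP or YFP after lungs had been pooled within a sample. No label says that replicates are separate animals, so p-values measure only the spread between these libraries, which may in part be technical.

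Confetti and mosaic libraries differed in more than the mutation. Xist, the RNA of the inactive X chromosome, stood at 715 and 709 CPM (counts per 1000000) in the RFP and YFP Confetti libraries, where Y-linked Ddx3y was at 0. The mosaic libraries of replicate 2 had Xist at 0.211 to 0.475 CPM and Ddx3y at 26.1 to 33.6 CPM. Those of replicate 1 had both, with Xist at 96.9 to 571 CPM and Ddx3y at 13.0 to 44.3 CPM. In the comparisons with Confetti, mouse line, sex and the presence of mutant cells therefore cannot be told apart. Between replicates 1 and 2 of the mosaic libraries the sex make-up of the mice differed as well, so the replicate number is tied to it.

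The files held 42012 barcodes with 279015362 unique molecular identifiers (UMIs, each a captured RNA molecule), 10742481 to 79927159 per library. Of the 32698 cells that passed the filters, 29596 were taken as epithelial (1011 to 4224 per library) and 2024 as immune (32 to 683). Immune cells made up 0.834% to 34.7% of the cells that passed, although the sort was for EpCAM. The epithelial cells had a median of 3251.5 to 15797 UMIs, and both RFP libraries at 2 weeks (15797 and 13365.5) were the deepest. A list of 8 AT2 markers made up 92730 to 202540 CPM of epithelial sums. Both replicate 1 libraries at 2 weeks had the highest immediate-early gene levels, 5787 CPM in RFP and 6054 CPM in YFP against 1918 to 3344 CPM in the others. Airway secretory markers were highest in YFP 2 weeks replicate 2 (16041 CPM) and RFP 4 days replicate 2 (10140 CPM). Pairs of libraries shared 1 to 17 cell barcodes (median 5 over 45 pairs).

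Chemokines are small secreted proteins that bind G protein-coupled receptors and guide leukocytes along their gradients. Cxcl1, Cxcl2, Cxcl5 and Cxcl15 belong to the CXC chemokines that draw neutrophils, through Cxcr2 for Cxcl1, Cxcl2 and Cxcl5, and Cxcl15, or lungkine, is known for its high expression in lung epithelium. Cxcl10 is induced by interferon and draws activated T cells through Cxcr3, whereas Cxcl16 is made as a membrane protein that Adam10 can shed and binds Cxcr6. Ccl2 draws monocytes through Ccr2, and Ccl20 draws lymphocytes and dendritic cells that carry Ccr6. Csf1 and Csf2 (M-CSF and GM-CSF) keep macrophages alive, and Csf2 from AT2 cells is needed for alveolar macrophages to form. Several of these genes are known targets of NF-kB, the transcription factor through which interleukin-1 and TNF act.

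On the GRCm38 build, the neutrophil chemokine genes lie close together on chromosome 5, in the order Cxcl5 (chr5:90759360-90761624), Cxcl15 (chr5:90794534-90803067), Cxcl1 (chr5:90891241-90893115) and Cxcl2 (chr5:90903871-90905938), all on the plus strand. Cxcl10 is further along the same chromosome on the minus strand (chr5:92346638-92348889). Cxcl16 (chr11:70453983-70459984, minus strand), Ccl2 (chr11:82035571-82037453, plus strand) and Csf2 (chr11:54247271-54249667, minus strand) are on chromosome 11, Ccl20 (chr1:83116766-83119167, plus strand) is on chromosome 1 and Csf1 (chr3:107741048-107760469, minus strand) on chromosome 3. These spans cover the whole annotated gene.

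Promoter sequence from RefSeq (GRCm38.p6) was at hand for 7 of the 10 genes, and all 7 are shown, since several of these genes move with NF-kB target genes from cell to cell. Each runs 5′ to 3′ on the strand of its gene and ends at the base before the annotated start, except that of Csf2, which ends 233 bases before the start annotated in the files' build. Capitals mark matches, on either strand, to the NF-kB consensus, to AP-1 (TGANTCA) and to the interferon-stimulated response element, ISRE (GAAANNGAAA). Cxcl1 is read from the plus strand of chr5:90890995-90891240, Cxcl2 from the plus strand of chr5:90903649-90903870, Cxcl10 from the minus strand of chr5:92348890-92349139, Ccl20 from the plus strand of chr1:83116516-83116765, Csf1 from the minus strand of chr3:107760470-107760719, Cxcl15 from the plus strand of chr5:90794284-90794533 and Csf2 from the minus strand of chr11:54249900-54250149.
Cxcl1: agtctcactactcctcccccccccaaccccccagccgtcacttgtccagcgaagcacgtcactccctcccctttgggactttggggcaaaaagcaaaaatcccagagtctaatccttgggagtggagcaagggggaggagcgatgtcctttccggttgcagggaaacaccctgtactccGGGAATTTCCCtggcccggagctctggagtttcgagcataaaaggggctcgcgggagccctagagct
Cxcl2: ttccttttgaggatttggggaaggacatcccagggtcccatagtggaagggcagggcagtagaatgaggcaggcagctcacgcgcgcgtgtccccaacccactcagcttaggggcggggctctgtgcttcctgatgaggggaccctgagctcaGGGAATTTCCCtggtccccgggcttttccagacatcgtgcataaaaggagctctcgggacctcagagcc
Cxcl10: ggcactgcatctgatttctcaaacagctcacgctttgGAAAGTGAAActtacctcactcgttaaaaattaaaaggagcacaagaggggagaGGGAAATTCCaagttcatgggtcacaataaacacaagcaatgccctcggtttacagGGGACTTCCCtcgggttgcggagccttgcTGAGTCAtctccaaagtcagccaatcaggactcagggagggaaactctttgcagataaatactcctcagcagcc
Ccl20: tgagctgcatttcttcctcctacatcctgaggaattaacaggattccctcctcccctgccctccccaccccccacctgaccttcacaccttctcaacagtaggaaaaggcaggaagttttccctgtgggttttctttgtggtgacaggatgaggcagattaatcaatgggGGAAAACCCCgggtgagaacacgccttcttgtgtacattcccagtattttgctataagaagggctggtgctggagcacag
Csf1: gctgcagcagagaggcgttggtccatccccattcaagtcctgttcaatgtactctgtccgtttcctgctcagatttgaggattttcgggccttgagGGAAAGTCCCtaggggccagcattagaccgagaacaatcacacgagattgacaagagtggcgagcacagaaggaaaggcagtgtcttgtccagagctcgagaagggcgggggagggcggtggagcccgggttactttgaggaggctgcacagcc
Cxcl15: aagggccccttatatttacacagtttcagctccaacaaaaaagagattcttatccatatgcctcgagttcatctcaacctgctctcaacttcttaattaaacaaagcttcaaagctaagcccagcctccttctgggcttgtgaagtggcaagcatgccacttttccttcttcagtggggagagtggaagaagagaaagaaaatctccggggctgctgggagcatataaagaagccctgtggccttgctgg
Csf2: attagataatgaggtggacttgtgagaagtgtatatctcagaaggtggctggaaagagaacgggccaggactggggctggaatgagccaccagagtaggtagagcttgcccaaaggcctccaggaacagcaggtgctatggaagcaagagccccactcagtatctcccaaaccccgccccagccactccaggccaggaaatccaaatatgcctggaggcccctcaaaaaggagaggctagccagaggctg

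In Cxcl1 and Cxcl2 the same run, GGGAATTTCCC, matched NF-kB on both strands, from 67 to 57 bases before the start in Cxcl1 and from 69 to 59 bases before it in Cxcl2. Cxcl10 held NF-kB matches at 159 to 150 and 103 to 94 bases before the start, an AP-1 match at 74 to 68 (TGAGTCA, which reads as a match on both strands) and an ISRE match at 213 to 204 (GAAAGTGAAA). Ccl20 had an NF-kB match at 80 to 71 bases on the other strand (GGAAAACCCC) and Csf1 a match at 154 to 145 bases, also on the other strand (GGAAAGTCCC). The Cxcl15 and Csf2 windows held none of the 3 motifs. Of 32851 mouse promoters in the same table, 3.90% held the NF-kB consensus, 6.75% AP-1 and 2.98% ISRE. A match describes the letters and says nothing of whether a factor binds there.

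The first question was how the signals differ between mutant cells and their wildtype neighbours. Levels are UMIs summed over the epithelial cells of a library, as CPM scaled by TMM (edgeR's normalization between libraries), and the count of molecules at the 3′ end does not depend on gene length. In such sums, fewer cells of a type and less RNA per cell cannot be told apart. Among the neutrophil chemokines, Cxcl5 and Cxcl1 were higher in RFP than in the same-numbered YFP library in all 4 pairs, and Cxcl2 in 3 of 4. With a block for the replicate number, Cxcl1 and Cxcl5 passed edgeR's test over both times. Without it edgeR called no gene, whereas DESeq2 called both.

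**Figure D1:**
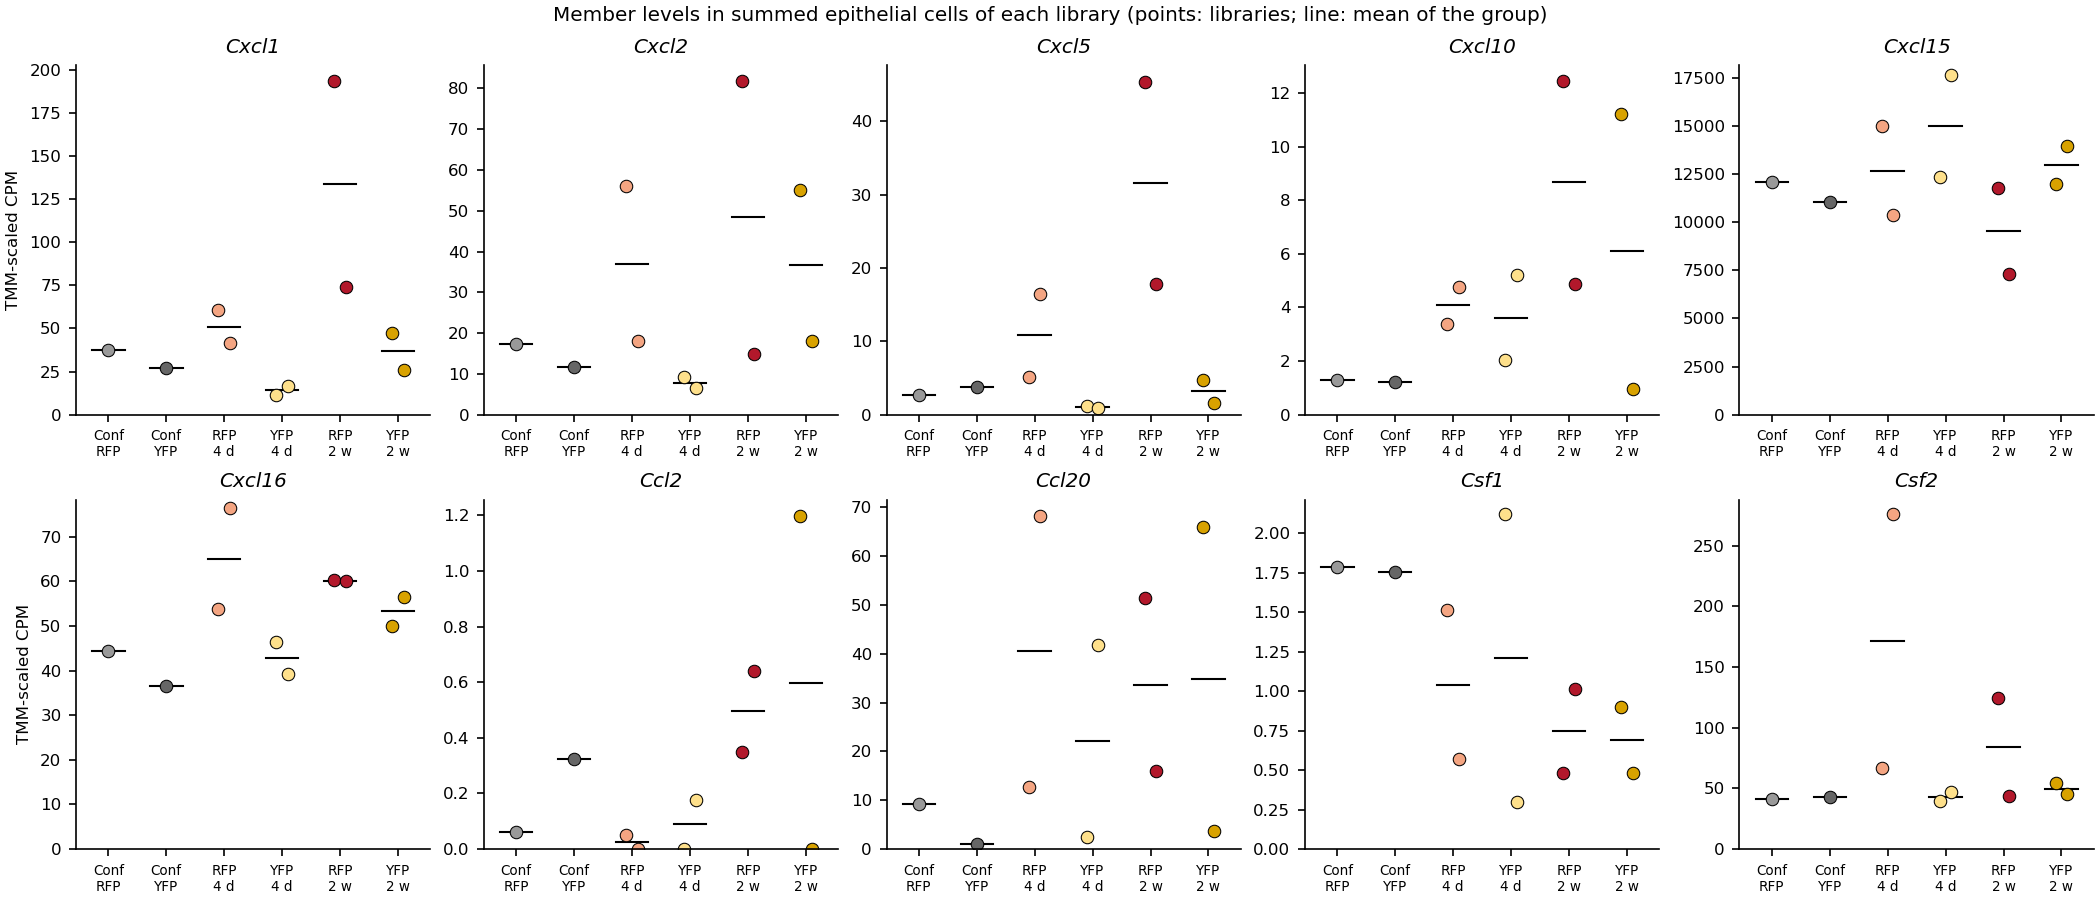
TMM-scaled CPM of each gene in summed epithelial cells, by group, with 1 point per library and the scale set for each gene. The 4 RFP libraries of mosaic lungs sit between 5.15 and 45.4 CPM for Cxcl5, above all 4 YFP libraries.

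Cxcl5, which epithelia make and which draws neutrophils, stood at 5.15 and 16.5 CPM in RFP libraries at 4 days (replicates 1 and 2) and at 45.4 and 17.8 CPM at 2 weeks. In the YFP libraries it was at 1.20 and 0.947 CPM at 4 days and at 4.75 and 1.61 CPM at 2 weeks, and in Confetti at 2.68 CPM in RFP and 3.83 CPM in YFP. Every RFP library of the mosaic lungs lay above every YFP library, and the RFP/YFP ratio within a pair ran from 4.29 to 17.4. Cxcl5 was the 1 gene of the 10 whose colours did not overlap, and 4.21% of all genes tested separated in that way with RFP higher.

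Cxcl1 was at 60.7 and 41.3 CPM in RFP cells at 4 days and at 193 and 73.9 CPM at 2 weeks. The YFP libraries had 11.6 and 16.7 CPM at 4 days and 47.6 and 26.2 CPM at 2 weeks, and Confetti 37.5 CPM in RFP and 27.2 CPM in YFP. The highest YFP library lay above the lowest RFP library, so the colours overlapped over both times but not within a time. Separation with RFP higher within a time was common, at 15.5% of all genes at 4 days and 28.1% at 2 weeks. Over the 4 libraries of a colour the mean was 92.3 ± 68.7 CPM (SD, n = 4) in RFP and 25.6 ± 15.9 CPM in YFP, and ratios within pairs ran from 2.47 to 5.22.

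Cxcl2, a close relative of Cxcl1, varied more between replicates than between colours at 2 weeks. RFP libraries had 56.1 and 18.1 CPM at 4 days and 81.9 and 14.9 CPM at 2 weeks, against 9.23 and 6.45 CPM and then 55.1 and 18.2 CPM in YFP. Confetti had 17.4 CPM in RFP and 11.6 CPM in YFP. In replicate 2 at 2 weeks the YFP library was the higher, with a ratio of 0.819, and in the other 3 pairs RFP was the higher, by up to 6.07. That exception rested on few cells, since 10 cells held 91.2% of the 113 Cxcl2 UMIs of the YFP library. In the paired RFP library 10 cells held 56.0% of 602 UMIs. Without the 10 highest cells of each library (a description chosen after seeing the data, not scaled by TMM) RFP stood at 6.74 CPM and YFP at 1.34 CPM. Only 20 YFP cells had a Cxcl2 UMI against 137 RFP cells, so taking 10 from each removes a larger part of the YFP cells.

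Cxcl15 was the most abundant of the 10 in epithelial cells, at 7311 to 17640 CPM. The RFP libraries had 15006 and 10354 CPM at 4 days and 11783 and 7311 CPM at 2 weeks, and the YFP libraries 12329 and 17640 CPM and then 11991 and 13966 CPM. Confetti held 12071 CPM in RFP and 11062 CPM in YFP. The colours overlapped, and RFP was the higher in 1 of 4 pairs, with ratios of 0.523 to 1.22.

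Csf2, the growth factor of alveolar macrophages, was at 67.0 and 276 CPM in RFP cells at 4 days and at 125 and 43.6 CPM at 2 weeks. All YFP and Confetti libraries lay in a narrow band, 39.4 and 46.9 CPM in YFP at 4 days, 54.0 and 45.3 CPM at 2 weeks, and 41.5 and 42.8 CPM in Confetti RFP and YFP. Of the RFP libraries, 3 lay above that band and RFP 2 weeks replicate 2 lay within it, so RFP was the higher in 3 of 4 pairs. The SD was 105 CPM over the RFP libraries and 6.02 CPM over the YFP libraries (n = 4 each).

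Cxcl16 varied little, from 36.5 to 76.4 CPM over the 10 libraries. It was at 53.8 and 76.4 CPM in RFP cells at 4 days and at 60.2 and 60.1 CPM at 2 weeks, at 46.3 and 39.1 CPM and then 49.9 and 56.6 CPM in YFP, and at 44.4 and 36.5 CPM in Confetti RFP and YFP. RFP was the higher in all 4 pairs by ratios of 1.06 to 1.95, but the highest YFP library passed the lowest RFP library.

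Ccl20 ranged over the libraries from 1.10 to 68.3 CPM, and the colours overlapped. RFP cells had 12.8 and 68.3 CPM at 4 days and 51.4 and 16.0 CPM at 2 weeks, and YFP cells 2.40 and 41.8 CPM and then 65.9 and 3.70 CPM. In Confetti it stood at 9.17 CPM in RFP and 1.10 CPM in YFP. RFP was the higher in 3 of 4 pairs, with ratios of 0.780 to 5.32, and replicates of a group lay far apart. Without the 10 highest cells of each library RFP stood at 2.41 and 30.2 CPM at 4 days, against 0 and 5.85 CPM in YFP. At 2 weeks RFP stood at 37.1 and 3.13 CPM, against 22.8 and 0 CPM in YFP. The YFP values of 0 were fixed beforehand, since only 3 cells (4 days replicate 1) and 8 cells (2 weeks replicate 2) had a Ccl20 UMI. A fixed 10 cells is also a larger share of a small library.

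Cxcl10, the interferon-induced chemokine, stayed low, at 3.38 and 4.78 CPM in RFP cells at 4 days and 12.5 and 4.86 CPM at 2 weeks. The YFP libraries had 2.03 and 5.21 CPM at 4 days and 11.2 and 0.964 CPM at 2 weeks, and Confetti 1.31 and 1.23 CPM in RFP and YFP. RFP was the higher in 3 of 4 pairs, with ratios of 0.918 to 5.05. Both replicate 1 libraries at 2 weeks, which also had the highest immediate-early gene levels, were the highest for Cxcl10. The part of that in the level was not tested.

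Csf1 and Ccl2 were near the limit of detection in epithelial cells. Csf1 ran from 0.296 to 2.12 CPM over the 10 libraries, with 225 UMIs in 200 of the 29596 epithelial cells. Ccl2 gave 95 UMIs in 28 cells, and 3 libraries had none, RFP 4 days replicate 2, YFP 4 days replicate 1 and YFP 2 weeks replicate 2. A count of 0 there allows a share of cells with a UMI of up to 0.209%, 0.177% and 0.297%, counting error only.

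In edgeR's quasi-likelihood test over both times (time as a term, Benjamini-Hochberg over 12863 genes, threshold 0.05), none of the 9 genes tested was called, and 0.0% of all genes were. At an unadjusted p under 0.05 there were 2755 genes, and the smallest adjusted p of any gene was 0.0581. The log2 difference of RFP from YFP was 3.23 ± 0.50 (SE) for Cxcl5 (adjusted p = 0.0842) and 1.83 ± 0.34 for Cxcl1 (adjusted p = 0.0850). It was 1.36 ± 0.50 for Csf2 (adjusted p = 0.169), 1.28 ± 0.68 for Cxcl2 (adjusted p = 0.319), 0.38 ± 0.18 for Cxcl16 (adjusted p = 0.276) and -0.35 ± 0.26 for Cxcl15 (adjusted p = 0.479). The median over the 9 was 0.38, against -0.03 over all genes tested. Ccl2 did not pass the filter on low counts.

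The replicate block, a term shared by both times, changed these calls. With the replicate number as a term, edgeR called 796 of 13237 genes (488 higher and 308 lower in RFP), 6.01% of those tested, among them Cxcl1 (log2 1.75 ± 0.28) and Cxcl5 (3.25 ± 0.51), both with an adjusted p of 0.0324. DESeq2 without the block called 1276 genes, 9.21% of its tested genes, and of the 10 called Cxcl5 (adjusted p = 5.26e-09), Cxcl1 (adjusted p = 1.79e-05) and Csf2 (adjusted p = 0.0338). Without RFP 4 days replicate 1, edgeR called 1431 genes, with Cxcl5 at an adjusted p of 0.0106 and Cxcl1 at 0.0242. The Csf2 difference rested on RFP 4 days replicate 2 and dropped to 0.70 without it. With 1 library left out that of Cxcl2 ran from 0.70 to 1.91 and that of Cxcl16 from 0.227 to 0.465.

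**Figure D2:**
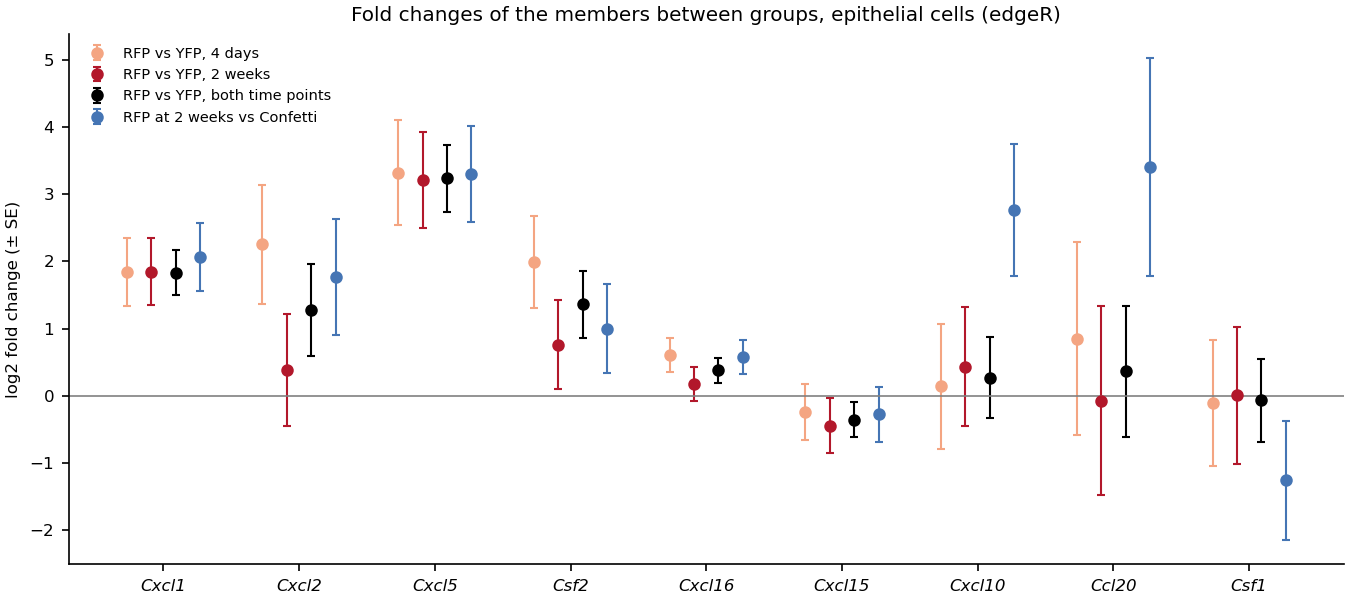
Log2 differences with SE from edgeR for 9 genes (Ccl2 left out) in 4 comparisons of summed epithelial cells, RFP with YFP at both times together, RFP with YFP at 4 days, RFP with YFP at 2 weeks, and RFP at 2 weeks with Confetti. Cxcl5 and Cxcl1 lie above 0 by more than their SE in all 4, at 3.23 and 1.83 over both times.

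At each time alone, Cxcl1 and Cxcl5 were higher in RFP cells, with wide errors. At 4 days the log2 difference was 3.32 ± 0.78 for Cxcl5 and 1.84 ± 0.51 for Cxcl1 (edgeR's adjusted p = 0.848 each), with no gene of the 10 called and 0.0% of 13835 genes called. At 2 weeks it was 3.21 ± 0.72 for Cxcl5 (adjusted p = 0.200) and 1.85 ± 0.50 for Cxcl1 (adjusted p = 0.210), again with none called and 0.0% over all genes. At an unadjusted p under 0.05 there were 766 genes at 4 days and 2239 at 2 weeks, and DESeq2 called 106 (0.776% of those it tested) and 480 (3.99%). Of the 10, DESeq2 called Cxcl5 (adjusted p = 0.00109) and Cxcl1 (adjusted p = 0.0216) at 4 days and the same 2 at 2 weeks (adjusted p = 3.33e-04 and 0.00899). With 1 library left out the Cxcl5 difference ran from 2.27 (without RFP replicate 2) to 3.96 (without RFP replicate 1) at 4 days, and from 2.37 (without RFP replicate 1) to 4.29 (without YFP replicate 1) at 2 weeks.

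Csf2 and Cxcl2 did not hold a steady size. Csf2 had a log2 difference of 1.99 ± 0.68 at 4 days (edgeR's adjusted p = 0.848), which was 0.63 without RFP replicate 2 and 2.68 without RFP replicate 1, and of 0.76 ± 0.66 at 2 weeks (adjusted p = 0.578), which was -0.21 without RFP replicate 1. Cxcl2 had 2.25 ± 0.89 at 4 days (adjusted p = 0.868), or 1.21 without RFP replicate 1, and 0.39 ± 0.83 at 2 weeks (adjusted p = 0.843), or -1.34 without RFP replicate 1. Cxcl1 at 2 weeks came to 0.97 without the same library. RFP 2 weeks replicate 1 was the deepest library, and its part in these values beyond being left out was not tested.

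The change in the RFP difference from 4 days to 2 weeks was tested as well. None of the 10 was called and 0.0% of 13835 genes were, with 224 genes at an unadjusted p under 0.05 and none called by DESeq2. Without the filter on low counts edgeR called 66 genes and 1 of the 10, Cxcl2 (-1.82, adjusted p = 0.0457). The log2 difference of differences was 0.00 ± 0.74 for Cxcl1, -0.11 ± 0.98 for Cxcl5, -1.23 ± 0.93 for Csf2 and -1.87 ± 1.20 for Cxcl2 (edgeR's adjusted p = 1.00 each). These SEs set the size of a change between the times that could be detected.

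The second question was how cells of mosaic lungs compare with Confetti, the lungs without mutant cells. Each Confetti colour was a group of 1 library in the fit. The SEs and p-values therefore rest on the spread of mosaic replicates and hold none between Confetti samples. Of the 10 genes, Cxcl5 rose in RFP cells at 2 weeks, by 3.30 ± 0.72 on the log2 scale (edgeR's adjusted p = 0.0475), and none passed in YFP cells at 2 weeks. In RFP cells 1 of 10 was called, while 4.31% of 13835 genes were (377 higher and 219 lower). Cxcl1 followed at 2.07 ± 0.51 (adjusted p = 0.0555), and its log2 difference ran from 1.18 to 2.56 with 1 library left out. DESeq2 called 2198 genes, 16.1% of those it tested, and 3 of the 10, Cxcl5 (adjusted p = 2.70e-05), Cxcl1 (4.57e-04) and Cxcl10 (0.0122).

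The Cxcl5 call stood close to the threshold. It was lost when either Confetti library, either RFP or either YFP library at 2 weeks, or either YFP library at 4 days was left out, with adjusted p from 0.0648 to 0.192, and without TMM scaling (0.0513) or with cells gated on Ptprc alone (0.0934). It was kept without RFP 4 days replicate 1 (0.0230) or replicate 2 (0.0226), when Cxcl1 was called too (0.0435 and 0.0428). Its log2 difference stayed between 2.44, without RFP 2 weeks replicate 1, and 3.79, without RFP 2 weeks replicate 2.

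Other genes of the 10 had larger values in RFP cells at 2 weeks than in Confetti without passing the test. The log2 difference was 3.40 ± 1.62 for Ccl20 (edgeR's adjusted p = 0.193), 2.77 ± 0.98 for Cxcl10 (adjusted p = 0.108), 1.77 ± 0.86 for Cxcl2 (adjusted p = 0.200), 1.00 ± 0.66 for Csf2 (adjusted p = 0.330) and 0.58 ± 0.26 for Cxcl16 (adjusted p = 0.169). Without RFP 2 weeks replicate 1 the values of Cxcl2 and Csf2 dropped to 0.03 and 0.01, and without Confetti YFP that of Ccl20 dropped to 1.84. Both RFP libraries lay above both Confetti libraries for 7 of the 10 (Cxcl1, Cxcl5, Cxcl10, Cxcl16, Ccl2, Ccl20 and Csf2) and below them for Csf1, while 37.5% of all genes tested lay wholly above. In RFP 2 weeks replicate 2 a lone cell held 24 of the 26 Ccl2 UMIs and a lone cell 138 of the 197 Cxcl10 UMIs. Without the 10 highest cells Cxcl10 was at 0.458 CPM there and at 8.37 CPM in RFP 2 weeks replicate 1, against 0.367 and 0.433 CPM in Confetti. Ccl2 was then at 0 in RFP 2 weeks replicate 2 and in Confetti RFP and YFP, as only 3, 1 and 5 cells had a UMI. The immediate-early genes were higher in these RFP libraries as well, at 5787 and 3134 CPM against 1948 and 2109 CPM in Confetti. So were the heat-shock genes, at 3931 and 1321 CPM against 716 and 758 CPM, and the interferon response genes, at 51.3 and 70.8 CPM against 18.2 and 22.7 CPM, though edgeR called no gene of these 3 lists. Markers of damage-associated transient progenitors (DATPs), cells between AT2 and the flat alveolar type 1 (AT1) cells, were higher by more, with 7 of 8 called higher (4.31% of all genes were called in either direction) and a summed level of 3275 and 4321 CPM against 665 and 645 CPM. Most of these calls could not hold when a Confetti library was left out, since 1 gene in all was then called. Of the AT1 markers 1 of 8 was called higher and of the AT2 markers 1 of 8 lower. The part of these lists in the values was not tested.

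In YFP cells at 2 weeks none of the 10 was called against Confetti, and 0.0145% of 13835 genes were (2 genes, with 739 at an unadjusted p under 0.05 and 95 called by DESeq2). The largest values were those of Ccl20, 3.48 ± 1.63, Cxcl10, 2.33 ± 0.98, Ccl2, 2.29 ± 1.45, and Cxcl2, 1.38 ± 0.85 (edgeR's adjusted p = 0.773 each), with Ccl2 near the limit of detection. All 4 rested on YFP 2 weeks replicate 1. Without it Ccl20, Cxcl10 and Cxcl2 came to 0.21, -0.40 and 0.35, and Ccl2 was at 0 UMIs in the YFP library that remained. That library also had the highest heat-shock level, 6348 CPM against 325 to 3931 CPM in the others.

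The third question was which of the signals belong to epithelial and which to immune cells of the same libraries. Ccl2, Cxcl2, Cxcl10, Csf1 and Cxcl16 were higher in immune cells, and Csf2, Cxcl15, Cxcl5 and Ccl20 were higher in epithelial cells. Cxcl1 did not pass the test in either direction. Of the 10 genes 9 were called (5 higher and 4 lower in immune cells), in a comparison where 63.5% of 13804 genes were called (3913 higher and 4854 lower), with the library as a term over the 20 sums.

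**Figure D3:**
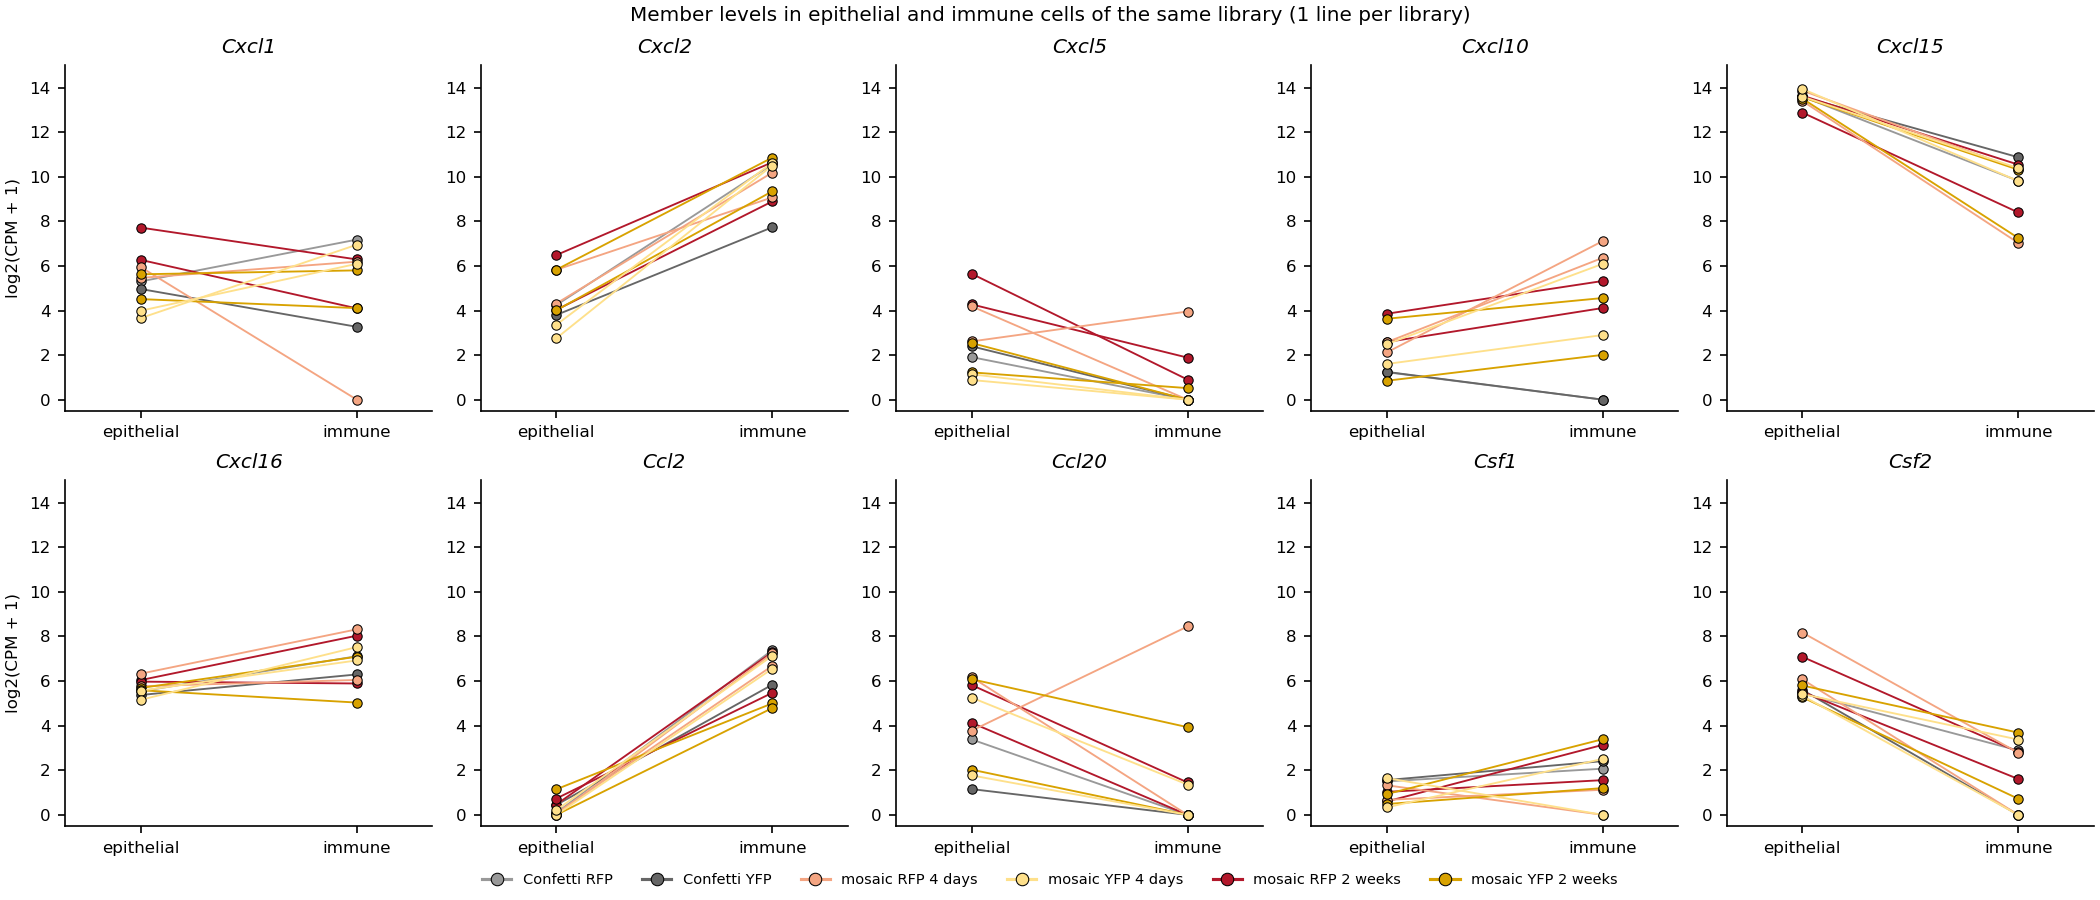
Level of each gene as log2(CPM + 1) in the summed epithelial and the summed immune cells of each library, with 1 line per library. Lines for Ccl2 and Cxcl2 rise towards immune cells and those for Cxcl15 and Csf2 fall in all 10 libraries.

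Ccl2 differed most, by a log2 value of 7.85 ± 0.57 (edgeR's adjusted p = 6.54e-09), at 26.6 to 166 CPM in immune cells (median 97.1) against at most 1.20 CPM in epithelial cells. Cxcl2 differed by 5.27 ± 0.45 (adjusted p = 4.97e-08), at 211 to 1852 CPM in immune cells. Both were higher in immune cells in 10 of 10 libraries. Cxcl10 differed by 2.38 ± 0.44 (adjusted p = 1.98e-04), Csf1 by 1.77 ± 0.53 (adjusted p = 0.00876) and Cxcl16 by 1.01 ± 0.27 (adjusted p = 0.00438), each with the immune sum higher in 8 of 10 libraries.

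On the epithelial side, Csf2 differed by -4.30 ± 0.35 (edgeR's adjusted p = 2.58e-08) and Cxcl15 by -4.22 ± 0.34 (adjusted p = 2.03e-08), with the epithelial sum higher in 10 of 10 libraries. Cxcl5 differed by -3.26 ± 0.52 (adjusted p = 4.70e-05) and Ccl20 by -3.08 ± 1.00 (adjusted p = 0.0139), each in 9 of 10. The value of Ccl20 was -4.74 without RFP 4 days replicate 1, where 32 immune cells gave 348 CPM, and -2.39 without RFP 2 weeks replicate 2, while Cxcl5 came to -3.87 without RFP 2 weeks replicate 2. Without YFP 2 weeks replicate 1 the value of Ccl2 was 8.50. With cells gated on Ptprc alone the calls of Ccl20 (-2.12, adjusted p = 0.0795) and Csf1 (0.98, adjusted p = 0.125) were lost.

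Cxcl1, alone among the neutrophil chemokines, did not differ beyond its error between the compartments, at a log2 value of 0.04 ± 0.52 (edgeR's adjusted p = 0.950), with the immune sum higher in 5 of 10 libraries. Its immune level ran from 0 to 144 CPM (median 61.0), or 0% to 1053% of the epithelial level of the same library. Summed over all libraries it was at 30.6 CPM in immune and 96.1 CPM in epithelial cells, sums in which large libraries weigh most. Leaving out a library moved the difference between -0.31 and 0.32.

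Some RNA of each compartment appeared in the other. Cxcl15 in immune cells was at 1.20% to 15.3% of its epithelial level (median 7.95%), and the AT2 marker list was at 1.32% to 12.0% (median 7.95%). Immune Cxcl15 was uneven, at 29.6 to 1764 CPM by library in cells with 20 or more UMIs per 10000 of alveolar macrophage markers. It was higher in cells by C1q macrophage markers in 3 of 8 libraries. The 46 cells by neutrophil markers held 4659 CPM over all libraries, and up to 18598 CPM in a library (YFP 4 days replicate 2, 2 cells), where the epithelial level on the same scale was 15709 CPM. How much of it came from RNA of AT2 cells was not tested. Csf2 in immune cells was at 0% to 22.5% of its epithelial level (median 3.28%). In the other direction, Ccl2 in epithelial cells was at 0% to 3.93% of its immune level (median 0.0814%), Cxcl2 at 0.396% to 10.4% (median 2.67%) and Cxcl16 at 19.0% to 148% (median 37.9%). The immune gate list was at 0.522% to 1.38% (median 0.987%), a level that the gate itself limits.

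The share of cells with at least 1 UMI was read beside the levels. Over the 10 libraries the lowest, median and highest share of epithelial cells was 71.8%, 99.6% and 99.9% for Cxcl15, 12.8%, 23.2% and 52.1% for Cxcl16, 14.1%, 19.3% and 36.6% for Csf2, and 4.13%, 8.30% and 41.4% for Cxcl1. Thinned to 2000 UMIs per cell (19 shallower cells left out, 0 to 6 per library), the medians were 99.3%, 8.86%, 7.77% and 4.61%. The highest shares of Cxcl16, Csf2 and Cxcl1 were those of RFP 2 weeks replicate 1, the deepest library. Thinned, it stood at 11.1% for Cxcl16 and 11.3% for Csf2, below RFP 4 days replicate 2 (13.6% and 18.8%), but was still the highest for Cxcl1, at 17.2%. Immune cells, at a median of 3893.5 to 12682 UMIs, showed Cxcl15 in 37.4% of cells in the median library and Csf2 in 1.23%. The rarer signals were seen in a median of 3.75% of epithelial cells for Cxcl2, 1.01% for Ccl20, 0.895% for Cxcl5, 0.679% for Csf1, 0.635% for Cxcl10 and 0.0305% for Ccl2, against 37.7%, 0%, 0%, 1.73%, 4.57% and 10.3% of immune cells.

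The UMIs of the rarer signals came from few cells. In the median library the 10 highest epithelial cells held 82.7% of all Ccl20 UMIs, 81.6% of Cxcl10, 80.0% of Cxcl5 and 45.7% of Cxcl2, against 25.0% of Cxcl1, 14.4% of Csf2, 5.29% of Cxcl16 and 1.38% of Cxcl15. A cell held up to 356 Ccl20 UMIs, 311 of Csf2, 204 of Cxcl1 and 196 of Cxcl2. A lone cell could carry much of a gene in a library, for example 70.1% of Ccl20 UMIs in Confetti RFP, 54.9% of Ccl20 and 70.1% of Cxcl10 UMIs in RFP 2 weeks replicate 2, and 44.2% of Cxcl2 UMIs in YFP 2 weeks replicate 2. Doublets were not called, so a cell with very many UMIs of a gene may hold RNA of more than 1 cell.

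Cells with a given chemokine often had a higher level of another, though not for every pair. In epithelial cells with a Cxcl1 UMI, Cxcl2 stood at 93.4 CPM (median over libraries) against 7.50 CPM in cells without, higher in 10 of 10 libraries, and 913 cells had both. Cells with a Cxcl2 UMI had 18.4 CPM of Cxcl10 against 1.41 CPM, and cells with a Ccl20 UMI had 147 CPM of Cxcl16 against 46.7 CPM, each higher in 10 of 10 libraries. Cxcl1 was at 70.8 CPM in cells with Csf2 and at 31.9 CPM in those without, again in 10 of 10. Cxcl15 went the other way, at 10756 CPM in cells with a Cxcl16 UMI and 12871 CPM in cells without, lower in 10 of 10. Cells with Cxcl5 had 1.00 CPM of Cxcl10 against 3.84 CPM (higher in 4 of 10), cells with Cxcl10 had 1.97 CPM of Cxcl5 against 4.54 CPM (higher in 3 of 10), and cells with Csf1 had Cxcl1 higher in 2 of 10. The depth of cells with and without a gene was not made equal, and these values are descriptions across cells of the same libraries.

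The same was asked of programmes known in alveolar epithelium. In each library the epithelial cells were ranked by the share of their UMIs from a list of genes, and the top 1 in 4 was set beside the rest, a range of a score and not a cell type. The NF-kB list holds 12 targets such as Nfkbia, Tnfaip3 and Icam1. The other lists hold DATP markers (8 genes such as Krt8 and Cldn4), markers of primed AT2 cells (4 genes such as Lcn2), immediate-early genes (8, such as Fos and Egr1) and interferon response genes (8, such as Isg15 and Ifit1).

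**Figure D4:**
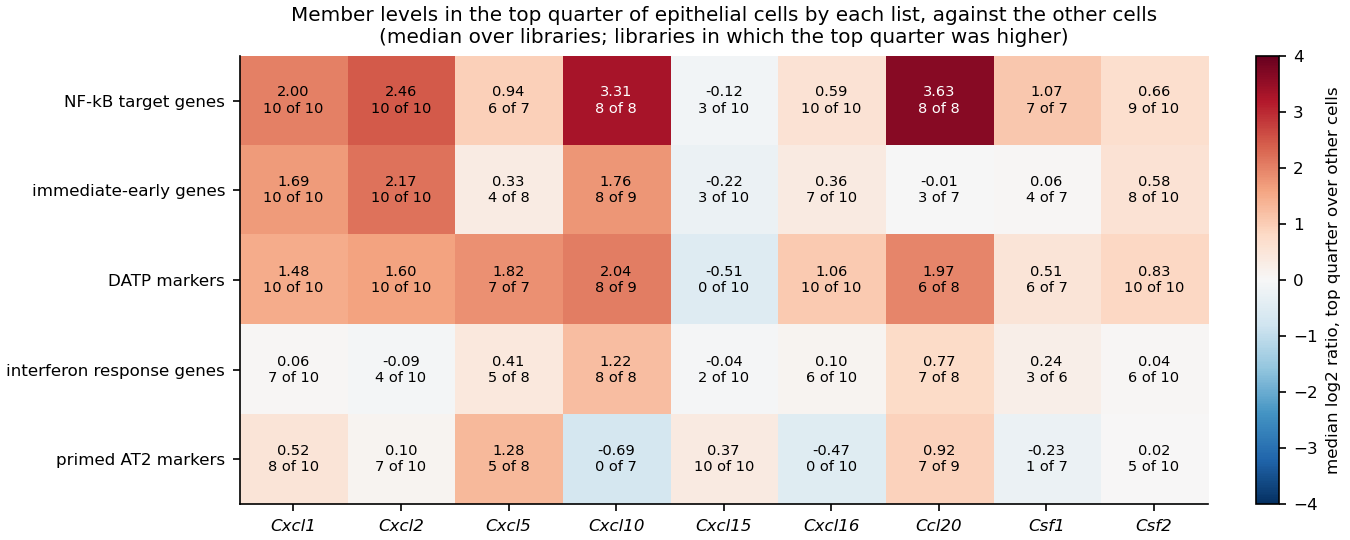
Median over libraries of the log2 ratio of CPM in the top 1 in 4 epithelial cells to that in the rest, for 9 genes and 5 gene lists, with the number of libraries in which the top cells were higher written in each cell. Cxcl1 and Cxcl2 are higher in 10 of 10 libraries for the NF-kB, immediate-early and DATP lists, and Cxcl15 is lower in 10 of 10 for the DATP list.

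Cells with the most NF-kB target RNA had higher levels of nearly every signal but Cxcl15. The median log2 ratio was 3.63 for Ccl20 and 3.31 for Cxcl10 (higher in 8 of 8 libraries that could be compared), 2.46 for Cxcl2 and 2.00 for Cxcl1 (10 of 10), 0.66 for Csf2 (9 of 10) and 0.59 for Cxcl16 (10 of 10). In median levels, Ccl20 stood at 94.0 CPM in the top cells and 4.05 CPM in the rest, Cxcl1 at 96.7 and 23.5 CPM, Cxcl2 at 43.1 and 10.4 CPM, and Cxcl10 at 13.9 and 1.11 CPM. Cxcl15 had a ratio of -0.12, higher in 3 of 10. The Csf2 window held no NF-kB match, but it ended 233 bases before the annotated start, so the bases nearest that start were not searched. Csf1 had a ratio of 1.07 (7 of 7), and Cxcl5, for which no promoter was searched, had 0.94 (6 of 7). Median UMIs in the top cells were 0.838 to 1.08 times those of the rest.

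By DATP markers the top cells also had more of most signals, and less Cxcl15. The top cells had more Cxcl10 (2.04, higher in 8 of 9 libraries), Ccl20 (1.97, 6 of 8), Cxcl5 (1.82, 7 of 7), Cxcl2 (1.60, 10 of 10), Cxcl1 (1.48, 10 of 10), Cxcl16 (1.06, 10 of 10) and Csf2 (0.83, 10 of 10), while Csf1 had 0.51 (6 of 7). Cxcl15 had a median ratio of -0.51 and was lower in 10 of 10, down to -3.85 in RFP 4 days replicate 2. Median UMIs in these top cells were 0.909 to 1.23 times those of the rest.

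By immediate-early genes the top cells had more Cxcl2 (2.17) and Cxcl1 (1.69), each in 10 of 10 libraries, and more Cxcl10 (1.76, 8 of 9), but Ccl20 (-0.01, 3 of 7) and Cxcl5 (0.33, 4 of 8) showed no common direction. By interferon response genes Cxcl10 stood out with 1.22, higher in 8 of 8 libraries, while Cxcl1 (0.06) and Cxcl2 (-0.09) were near 0. Up to 93.6% of the cells of a library had no UMI of the interferon list, so its top 1 in 4 also held cells at 0. By primed AT2 markers Cxcl15 was higher (0.37, 10 of 10), Cxcl16 was lower (-0.47, 10 of 10) and Cxcl10 was lower (-0.69, 7 of 7).

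Epithelial cells without a Cxcl15 UMI were a further split. In RFP 4 days replicate 2 they numbered 405 of 1436, in RFP 2 weeks replicate 1 78 of 4045 and in RFP 2 weeks replicate 2 390 of 2762, against 2 to 16 cells in each of the other 7 libraries. They kept Epcam, at 280 CPM against 291 CPM in cells with Cxcl15, 1143 against 501 CPM and 1252 against 675 CPM in those libraries. They had little Sftpc, at 272 against 89562 CPM, 674 against 71135 CPM and 1802 against 78412 CPM. Their DATP list was the higher, at 5056 against 1647 CPM, 9015 against 3195 CPM and 8533 against 3787 CPM. As the split was made on Cxcl15, its own levels and those of AT2 genes that go with it are a description.

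**Figure D5:**
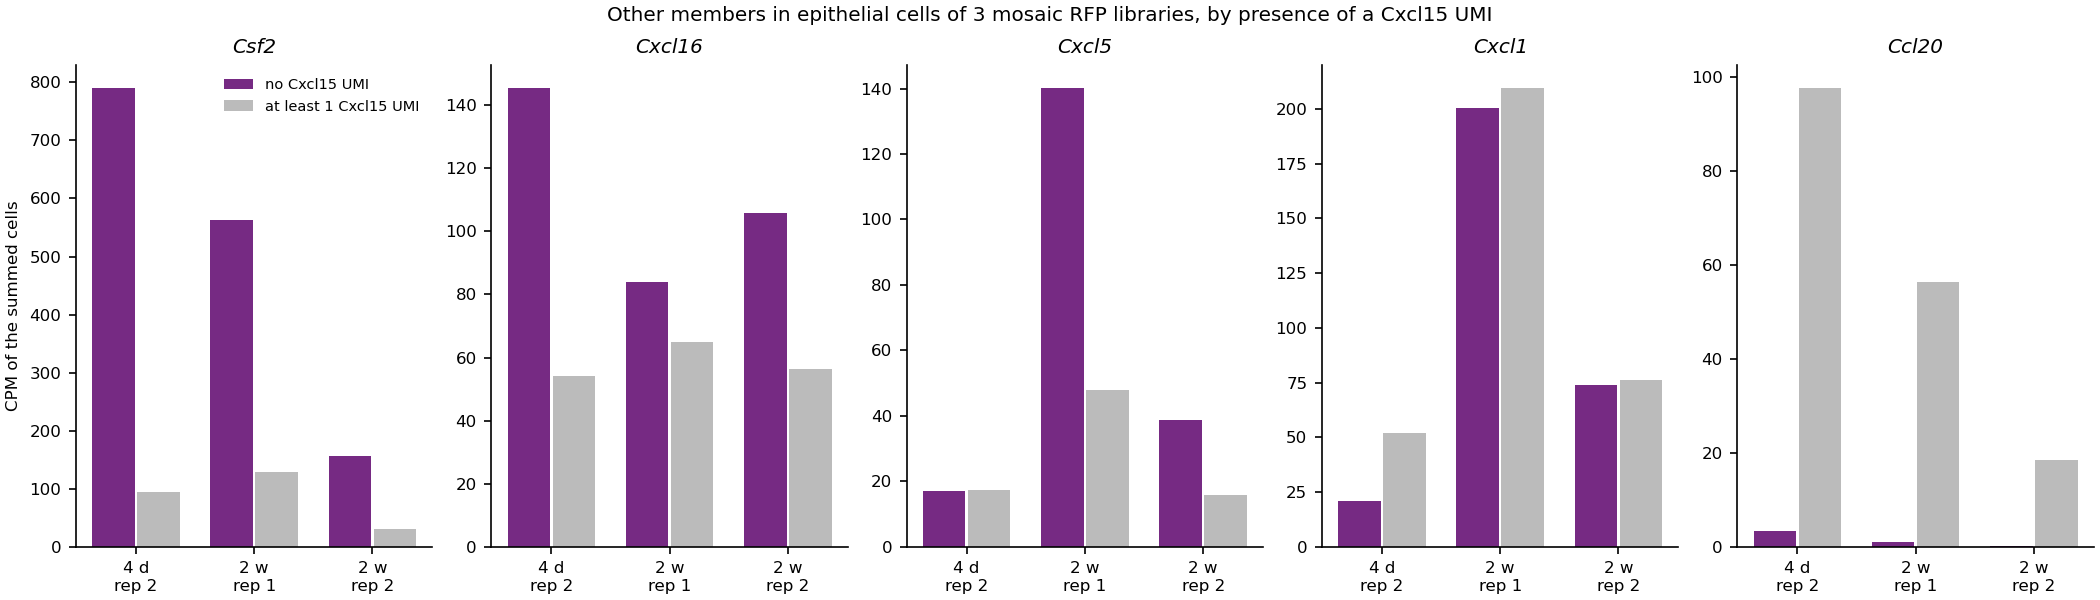
CPM of Csf2, Cxcl16, Cxcl5, Cxcl1 and Ccl20 in epithelial cells without and with a Cxcl15 UMI, in the 3 RFP libraries with 78 or more cells of the former kind. Bars for Csf2 and Cxcl16 are taller and bars for Ccl20 shorter in cells without Cxcl15 in all 3 libraries.

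Cells without Cxcl15 had the higher Csf2 level. Csf2 stood at 790 CPM in them and 93.8 CPM in the others in RFP 4 days replicate 2, at 563 and 129 CPM in RFP 2 weeks replicate 1, and at 157 and 30.7 CPM in RFP 2 weeks replicate 2. Cxcl16 was higher in them in all 3 libraries as well, at 145 and 54.2 CPM, 83.9 and 64.9 CPM, and 106 and 56.3 CPM. Ccl20 was nearly confined to cells with Cxcl15 in these 3 libraries, at 3.40 and 97.6 CPM, 1.02 and 56.4 CPM, and 0.231 and 18.6 CPM.

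The neutrophil chemokines did not follow the split in a single direction. Cxcl5 was at 17.0 and 17.3 CPM in cells without and with Cxcl15 in RFP 4 days replicate 2, at 140 and 47.9 CPM in RFP 2 weeks replicate 1 and at 38.8 and 15.8 CPM in RFP 2 weeks replicate 2. Cxcl1 was at 20.8 and 51.8 CPM, 200.5 and 209 CPM, and 73.8 and 76.4 CPM. Median depth was lower in cells without Cxcl15, at 5012 against 5203 UMIs, 10825 against 15881 and 9802.5 against 13878.5, and the part of that was not tested.

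Among immune cells the macrophage lists separated the signals. Of 2024 immune cells, 1470 had their highest share in a list of alveolar macrophage markers (such as Marco and Siglecf) and 260 in a list of C1q macrophage markers. Cells by the C1q list had more Ccl2 (453 against 27.1 CPM over all libraries), Cxcl2 (2425 against 629 CPM), Cxcl16 (350 against 31.0 CPM) and Cxcl1 (161 against 18.2 CPM), each higher in 8 of the 8 libraries with enough cells of both. Cxcl10 was at 113 and 9.76 CPM and higher in 6 of 8. The 46 cells by the neutrophil list had 2406 CPM of Cxcl2 and 38.9 CPM of Csf1, beside the high Cxcl15 given above, and the 53 by the lymphocyte list had 181 CPM of Cxcl2 and none of Cxcl1 or Cxcl16.

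The relatives and receptors of these genes were described from fixed lists. Between RFP and YFP over both times edgeR called none of the 4 other CXC, CX3C and XC chemokines tested (median log2 difference 1.09), 5 other CC chemokines (0.02), 11 other myeloid growth factors and cytokines (0.04), 8 receptors (-0.38), 12 NF-kB targets (0.10) or 4 proteases (-0.22), in a fit where 0.0% of all genes were called and the median over all genes was -0.03. With the replicate block, where 6.01% of all genes were called, 2 of the CXC, CX3C and XC chemokines passed, Cxcl3 (2.61 ± 0.30, adjusted p = 0.0228) and Pf4 (1.87 ± 0.23, adjusted p = 0.0228). So did 4 of 13 growth factors and cytokines, Il1a (4.96 ± 0.79), Lif (3.64 ± 0.77), Tslp (3.05 ± 0.72) and Tnf (2.18 ± 0.48), with adjusted p from 0.0324 to 0.0477, all higher in RFP cells. None of the CC chemokines, receptors, NF-kB targets or proteases passed with the block. DESeq2 without it called the same 6 genes, and Il33 (adjusted p = 0.0106) and Mmp14 (adjusted p = 0.0433) as well. Without the block, of the CXC chemokines with the highest levels, Cxcl3, a neighbour of Cxcl1 and Cxcl2 in function, had 2.62 ± 0.32 (adjusted p = 0.0581) and Cxcl17, a chemokine of mucosal epithelium, -0.97 ± 0.41 (adjusted p = 0.210). Of the cytokines, Il33, an alarmin of AT2 cells, had -1.20 ± 0.34 (adjusted p = 0.108) and Il34, a further ligand of Csf1r, -0.03 ± 0.21 (adjusted p = 0.954). The 8 DATP markers all had positive differences (median 2.89). None was called without the block, 7 were with it and 8 by DESeq2.

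Against Confetti, RFP cells at 2 weeks had Cxcl3 (log2 3.43 ± 0.49, edgeR's adjusted p = 0.0353) and Pf4 (1.65 ± 0.36, adjusted p = 0.0475) higher among 6 CXC, CX3C and XC chemokines tested. Ccl27a, an epithelial chemokine that draws T cells, was lower (-1.58 ± 0.24, adjusted p = 0.0353) and the sole call among 11 CC chemokines. Of 13 growth factors and cytokines, 3 rose, Tnf (5.13 ± 0.74, adjusted p = 0.0353), Il1a (5.83 ± 1.21, adjusted p = 0.0487) and Tslp (3.18 ± 0.71, adjusted p = 0.0493), the first 2 of them activators of NF-kB. These calls stand against 4.31% of all genes and were not stable, since edgeR called 1 gene in all without either Confetti library, 2 without RFP 2 weeks replicate 2 and 3 with cells gated on Ptprc alone. None of 10 receptors, 12 NF-kB targets or 5 proteases was called. In YFP cells at 2 weeks no gene of these lists was called.

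In immune against epithelial cells 16 of 17 receptors tested were higher and none lower, where 63.5% of all genes were called, 3913 higher and 4854 lower. Of the 21 receptors listed, only 10 passed the filter on low counts in the fit of epithelial sums of all libraries. Receptors that entered here through their immune level were bound to be higher in immune cells, so the count is a description. Ccr2, the receptor of Ccl2, differed by 10.50 ± 0.38 on the log2 scale, Csf1r by 7.56 ± 0.36, Csf2rb by 8.01 ± 0.26, Csf2ra by 3.61 ± 0.15, Cxcr6 by 7.32 ± 1.01, Cxcr3 by 6.14 ± 0.62 and Cxcr2 by 3.77 ± 0.68 (edgeR's adjusted p at most 1.51e-04 for each). Ccr6, the receptor of Ccl20, was the receptor not called, at -0.05 ± 0.74 (adjusted p = 0.958). Of the other chemokines, 5 CXC, CX3C and XC genes were higher and 1 lower of 8 tested, and 11 CC genes were higher and 1 lower of 13. The same limit holds for these, as 6 and 11 passed the filter in the epithelial sums. The lower genes were Cxcl17 (-3.76 ± 0.29) and Ccl27a (-2.36 ± 0.25), and of the cytokines Il33 (-4.48 ± 0.30) and Il34 (-4.09 ± 0.35) were lower as well. Ccl3 (11.36 ± 0.34) and Ccl4 (10.64 ± 0.33) were among the higher.

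Each gene was also set beside those whose level over the 10 libraries was most like it, by Pearson's r of log2 CPM among 13834 genes. For Cxcl15 these were Wfdc2 and Sftpa1 (r = 0.92 each), for Cxcl1 1810055G02Rik and Ticrr (0.92 each), for Cxcl2 Egr2 (0.89) and Acvrl1 (0.84), and for Cxcl5 Tcof1 (0.97) and Baz1a (0.96). For Csf2 they were Cdh17 (0.99) and Nkx6-1 (0.98), for Ccl20 Ano9 and Stk35 (0.92 each), for Cxcl10 Nipa2 (0.96) and Rcan1 (0.94) and for Cxcl16 Sars (0.94) and Ajuba (0.93). For Csf1 they were Mdm4 and 5031425E22Rik (0.98 each) and for Ccl2 Pdxdc1 (0.89) and Usp39 (0.84), both at levels near the limit of detection. The points share depth, mouse line and group, and with so many genes compared a high r is no finding.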

How the data were processed

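The authors made droplet single-cell 3′ libraries and deposited gene by barcode tables of raw UMI counts from Cell Ranger (3.1.0 in the submitters' processing notes, 5.0.1 in the file headers) on GRCm38. Chemistry is v2 in the labels and v3 in the study's methods. Following those methods, cells with at least 1000 genes, at most 50000 UMIs and at most 15% mitochondrial UMIs were kept. Of 42012 barcodes, 9152 had fewer genes, 119 more UMIs and 1534 a higher mitochondrial share, and some failed on more than 1 count. Epithelial cells had no Ptprc UMI and under 20 UMIs per 10000 in each of an immune, an endothelial, a mesenchymal and a ciliated gene list. Immune cells had Ptprc and 20 or more per 10000 in the immune list. The 75 Ptprc-positive cells below it and the other gated cells were left out, no doublets were called, and nothing was clustered.

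Counts were summed per library and class and tested with edgeR 4.0.16 (R 4.3.3; TMM, filterByExpr, quasi-likelihood F, Benjamini-Hochberg, 0.05), RFP with YFP over the 8 mosaic libraries with time as a term and the other comparisons between groups over 6 groups and 10 libraries. DESeq2 1.42.0, no TMM, no filter, other gates, leaving out each library and a replicate block were the alternatives. An SE is the size of the log2 difference divided by the root of F. Fits were run on simulated counts with known changes put into well-counted genes. The simulated spread was a fixed value, not taken from these replicates, so it says little of genes as sparse and uneven as most of these. No label says that same-numbered RFP and YFP libraries share lungs, but their replicate differences went together across 13835 genes (r = 0.45 at 4 days, 0.63 at 2 weeks), so the numbers were taken to pair them and blocked values stand where they change a call. Counts of replicates differed by more than sampling noise (chi-square per degree of freedom 69.6 to 217).

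All 10 genes are named, with the 2 most like each, and from each list the genes called (the few with a role described here where many were), else the 2 highest. The mutated gene of the mosaic line is not reported here. The genes and lists were chosen with earlier results of these data known. Shares were also thinned to 2000 UMIs per cell, as an exact expectation. Floors for a count of 0 use 3 counts and cover counting error only.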

Additional observations from a re-analysis of the deposited data

How the results depend on the processing

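The direction of Cxcl1 and Cxcl5 between RFP and YFP cells, over both times and at each time, was the same under every alternative tried, while the number of genes called was not stable. DESeq2 called 1276 genes over both times, 106 at 4 days, 480 at 2 weeks, 2198 for RFP and 95 for YFP cells at 2 weeks against Confetti. Without a filter on low counts edgeR called 1896, 513, 1379, 3209 and 511, and 66 for the change between times, and of the 10 genes 4, 4, 2, 6, 3 and 1, all higher except Cxcl2 in the change between times. Without TMM it called 10 over both times and 4 for YFP against Confetti, and the median of all genes over both times moved from -0.03 to 0.13. With cells gated on Ptprc alone it called 3 for RFP and 1 for YFP against Confetti. With the replicate block it called 796 over both times, and the block changed no call of a gene of the 10 other than those given for Cxcl1 and Cxcl5. Leaving out a library gave 0 to 1431 genes over both times, the most without RFP 4 days replicate 1, 0 to 153 at 4 days, 0 to 1 at 2 weeks, 1 to 1796 for RFP and 0 to 3 for YFP against Confetti. The causes were not tested.

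Of the reported fold changes of the 10 genes between groups, 151 values under other settings kept direction and side of the threshold, 30 newly passed it, 2 no longer did and 3 turned. With a library left out these numbers were 242, 4, 8 and 14. The sign turned for the change between times of Cxcl1 (-0.024 with DESeq2, -0.015 with a gate of 10) and Cxcl5 (0.065 with Ptprc alone), and for immune Cxcl1 (-0.27 with DESeq2, -0.058 with a gate of 10, -0.063 with a gate of 40). With a library left out, the range crossed 0 for Csf2 at 2 weeks (-0.21 to 1.30), Cxcl2 at 2 weeks (-1.34 to 1.41), Cxcl10 in YFP cells against Confetti (-0.40 to 3.14), immune Cxcl1 (-0.31 to 0.32) and the change between times of Csf2 (-2.20 to 0.13), Cxcl1 (-0.88 to 0.51) and Cxcl5 (-0.95 to 0.97). Of 100 shares of epithelial cells, 97 were lower after thinning.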

Other observations

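Cells outside the 2 main classes held some of the signals as well. The 73 Ptprc-negative cells high in mesenchymal markers, found in 8 libraries, had Cxcl1 at 369 CPM (148 UMIs in 21 cells) and Csf1 at 110 CPM (44 UMIs in 21 cells), with Ccl2 at 34.9 CPM and Cxcl10 at 49.9 CPM. The 333 cells high in endothelial markers had Csf1 at 32.4 CPM (50 UMIs in 45 cells). In epithelial cells Csf1 came to at most 2.12 CPM in a library. The 387 Ptprc-negative cells high in immune markers had Ccl2 at 321 CPM, Cxcl2 at 789 CPM and Cxcl16 at 246 CPM. The 210 cells high in ciliated markers had Cxcl1 at 16.7 CPM and no Csf1. These are sums over all libraries, with no test, and cells of these kinds were not the aim of the sort.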
